A study of Mus musculus with 35 samples.

Results

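The 10 genes described here, Per1, Per2, Per3, Nr1d1, Nr1d2, Dbp, Tef, Ciart, Npas2 and Clock, belong to the circadian clock of the cell and were taken by symbol from the 54532 genes of the count and FPKM tables. The rule that picks them uses symbols and no threshold on a measured value. Each symbol matched 1 gene, and each gene passed the filter on low counts in every comparison. The RNA came from whole lungs of adult mice, at least 3 months old. Control mice were B6/129SJ2 wild-type mice, Cav1-KO mice carried the allele that the labels write Cav1(tm1Mls/)J and lack caveolin-1 in the whole body, and Cav1-RC mice carry that knockout with caveolin-1 put back in endothelial cells. What drives the returned gene was not given in the sources used here. Females and males of each genotype spent 6 weeks in standard cages (normoxia) or in a chamber at 10% oxygen (hypoxia), which gives 12 groups of 3 mice, with 2 each in normoxic Cav1-KO females and normoxic Cav1-RC females. The study compared these groups in pairs to follow caveolin-1 and oxygen in pulmonary arterial hypertension. One more library, of uncertain identity, was left out of the groups. The time of day at which the lungs were taken was not given in the sources used here. Whole lung mixes many cell types, so a lower level can be fewer cells of a type or less RNA per cell, and the counts cannot tell these apart.

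The clock is a loop of transcription. CLOCK, or its relative NPAS2, pairs with the product of Arntl (BMAL1) and turns on genes that carry an E-box. Among these targets are the Per genes, whose proteins later block that same pair, Nr1d1 and Nr1d2, whose proteins REV-ERB alpha and beta silence Arntl and Npas2, Ciart (CHRONO), another repressor of the pair, and Dbp and Tef, factors that act on D-boxes such as those of Per3. In mouse peripheral tissues, lung among them, RNA of Nr1d1, Dbp and Tef is known to be high in the light phase when Arntl and Npas2 are low, Per1 and Per2 come later and also answer to glucocorticoids and other acute signals, and Clock swings little.

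Promoters, 250 bases before to 50 after a gene's start, were read from RefSeq in build GRCm38.p6 to show which of these elements stand beside the members. An entry was found for 9 of the 10 members, 13 entries in all, and Per2 had no entry. The letters searched on both strands were the E-box CACGTG, the E'-box CACGTT, the D-boxes TTATGTAA and TTACGTAA, the REV-ERB elements TAGGTCA and TGGGTCA, and the CRE TGACGTCA. They were found in 6 entries of 5 members, and in none of Npas2, Dbp, Clock and Nr1d2. Windows that held a match are printed, 1 per member, with the matches in capitals, and each sequence runs along its gene's strand.
Ciart, chr3:95882179-95882478, minus strand: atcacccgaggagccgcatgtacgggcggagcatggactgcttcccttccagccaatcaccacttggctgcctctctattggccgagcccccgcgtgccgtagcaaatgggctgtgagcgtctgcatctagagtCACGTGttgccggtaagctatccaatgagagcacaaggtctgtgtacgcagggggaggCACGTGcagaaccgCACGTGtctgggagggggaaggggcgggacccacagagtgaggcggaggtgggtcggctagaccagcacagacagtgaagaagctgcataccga
Per3, chr4:151044616-151044915, minus strand: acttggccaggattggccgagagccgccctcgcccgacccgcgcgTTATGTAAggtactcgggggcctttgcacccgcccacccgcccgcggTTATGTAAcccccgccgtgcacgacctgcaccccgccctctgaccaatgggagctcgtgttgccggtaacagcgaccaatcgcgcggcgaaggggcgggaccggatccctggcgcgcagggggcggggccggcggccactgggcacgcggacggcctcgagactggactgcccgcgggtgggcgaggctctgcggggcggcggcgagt
Per1, chr11:69098699-69098998, plus strand: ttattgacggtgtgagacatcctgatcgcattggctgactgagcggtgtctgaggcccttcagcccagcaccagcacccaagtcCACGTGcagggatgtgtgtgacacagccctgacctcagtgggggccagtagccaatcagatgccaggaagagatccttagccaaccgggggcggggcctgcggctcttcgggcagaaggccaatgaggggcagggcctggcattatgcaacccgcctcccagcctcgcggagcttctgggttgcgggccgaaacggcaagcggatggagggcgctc
Nr1d1, chr11:98775328-98775627, minus strand: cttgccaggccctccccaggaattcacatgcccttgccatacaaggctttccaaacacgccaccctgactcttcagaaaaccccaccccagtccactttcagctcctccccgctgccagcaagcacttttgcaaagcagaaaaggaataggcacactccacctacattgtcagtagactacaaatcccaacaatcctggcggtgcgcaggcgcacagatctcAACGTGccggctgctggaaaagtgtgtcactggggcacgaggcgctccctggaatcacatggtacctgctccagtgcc
Tef, chr15:81802423-81802722, plus strand: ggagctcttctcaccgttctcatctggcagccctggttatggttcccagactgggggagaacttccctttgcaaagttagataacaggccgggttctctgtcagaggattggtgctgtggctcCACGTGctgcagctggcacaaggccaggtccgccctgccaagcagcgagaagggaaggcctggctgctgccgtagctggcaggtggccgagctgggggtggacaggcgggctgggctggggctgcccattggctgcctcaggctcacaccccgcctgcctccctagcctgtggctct

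The Ciart window held CACGTG 3 times, starting 116, 58 and 44 bases before the start of the gene. Of 32851 RefSeq promoters of this length, 7.15% held CACGTG, 0.594% at least 2 copies and 0.0883% at least 3. Per1 and both entries of Tef held it once each. The Per3 window held the D-box TTATGTAA in 2 copies, 205 and 158 bases before the start, against 0.938% of promoters with any and 0.0213% with at least 2. Nr1d1 held CACGTT once, read on the opposite strand as AACGTG, and 4.69% of promoters held that E'-box. TTACGTAA was in 0.119%, TAGGTCA in 2.61%, TGGGTCA in 3.98% and TGACGTCA in 1.79% of promoters and in none of the members' windows. These are matches of letters and say nothing of binding in these lungs.

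Counts on genes ranged from 12425535 to 33343006 per library, and levels below are CPM, counts scaled to a common library size by TMM, unless FPKM is named. Cav1 had 986 to 1353 CPM in the Control libraries, 1.6 to 3.99 in Cav1-KO and 1.48 to 6.54 in Cav1-RC, so these counts do not set Cav1-RC apart from Cav1-KO. A total of 3 libraries labelled male, replicate 2 of hypoxic Control males and replicates 1 and 2 of normoxic Cav1-RC males, had Xist as high as females, and they were kept under their labels. The animal numbers of 12 of the 34 mice stand in the source data of the study's western blots, called the blot list here, and 22 do not. By the library names, listed mice carry lower animal numbers than unlisted mice of the same genotype, and what that order stands for was not given in the sources used here. All hypoxic Control males, hypoxic Cav1-KO females and hypoxic Cav1-KO males were on it, and replicate 1 each of normoxic Control females, hypoxic Control females and normoxic Cav1-RC females. Of 14 lists of cell type markers, some moved with the blot list. The 3 club cell markers (Scgb1a1, Scgb3a2, Cyp2f2) summed to 34222 to 76136 CPM on it and 14550 to 48703 off it, the 4 cardiac muscle markers (Myh6, Tnnt2, Tnni3, Actc1) to 108 to 488 and 502 to 1252, and the 3 fibroblast markers (Col1a1, Pdgfra, Dcn) to 407 to 777 and 639 to 1190. The ranges overlapped for every list but cardiac muscle, and widely for most, as for the 4 endothelial markers (Pecam1, Cdh5, Cldn5, Kdr) with 1890 to 3070 CPM on the blot list and 1946 to 3547 off it. Some lists also moved between compared groups. Erythroid markers summed to 169 to 655 CPM in hypoxic and 1415 to 1830 in normoxic Control males, and to 1583 to 21039 and 1329 to 1973 in Cav1-KO males. Neutrophil markers summed to 96.6 to 142 CPM in hypoxic and 35.9 to 39.4 in normoxic Control males. No marker of these lists was at 0, and their part in the results below was not tested.

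Per unit of length, as FPKM over the 34 libraries, the 10 genes lay far apart in level. Nr1d1 stood first at 74.9 ± 20.2 (SD, n = 34), followed by Tef at 56.1 ± 15.3, Dbp at 43.7 ± 19.2, Nr1d2 at 36.0 ± 8.76 and Per1 at 28.8 ± 10.1. Below them came Per2 at 17.6 ± 6.95, Ciart at 14.7 ± 7.68, Per3 at 11.6 ± 4.02, Clock at 5.06 ± 0.654 and Npas2 at 0.841 ± 0.803. Neighbours in this order lay closer than the larger of their SDs, except Per1 and Per2, Per3 and Clock, and Clock and Npas2. In mm10 the 3 genes that varied most are Dbp on chromosome 7 (45705088 to 45710203), Npas2 on chromosome 1 (39193731 to 39363236) and Ciart on chromosome 3 (95878503 to 95882251). The spread went another way than the level. The highest library exceeded the lowest 22.9-fold in CPM for Dbp, 18.4-fold for Npas2 and 10.5-fold for Ciart, 4.4-fold to 7.12-fold for the Per, Nr1d and Tef genes, and 1.75-fold for Clock. Npas2 rested on 19 to 319 counts per library, Ciart on 129 to 2436, and the other 8 on at least 143. Exons of Dbp share 539 of 2993 bases with Sphk2, those of Nr1d1 263 of 3077 with Thra and those of Tef 193 of 7867 with Gm17597, each on the opposite strand, and as the counting used default parameters, which ignore strand, reads there cannot be told apart. The other 7 members share none.

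**Figure D1:**
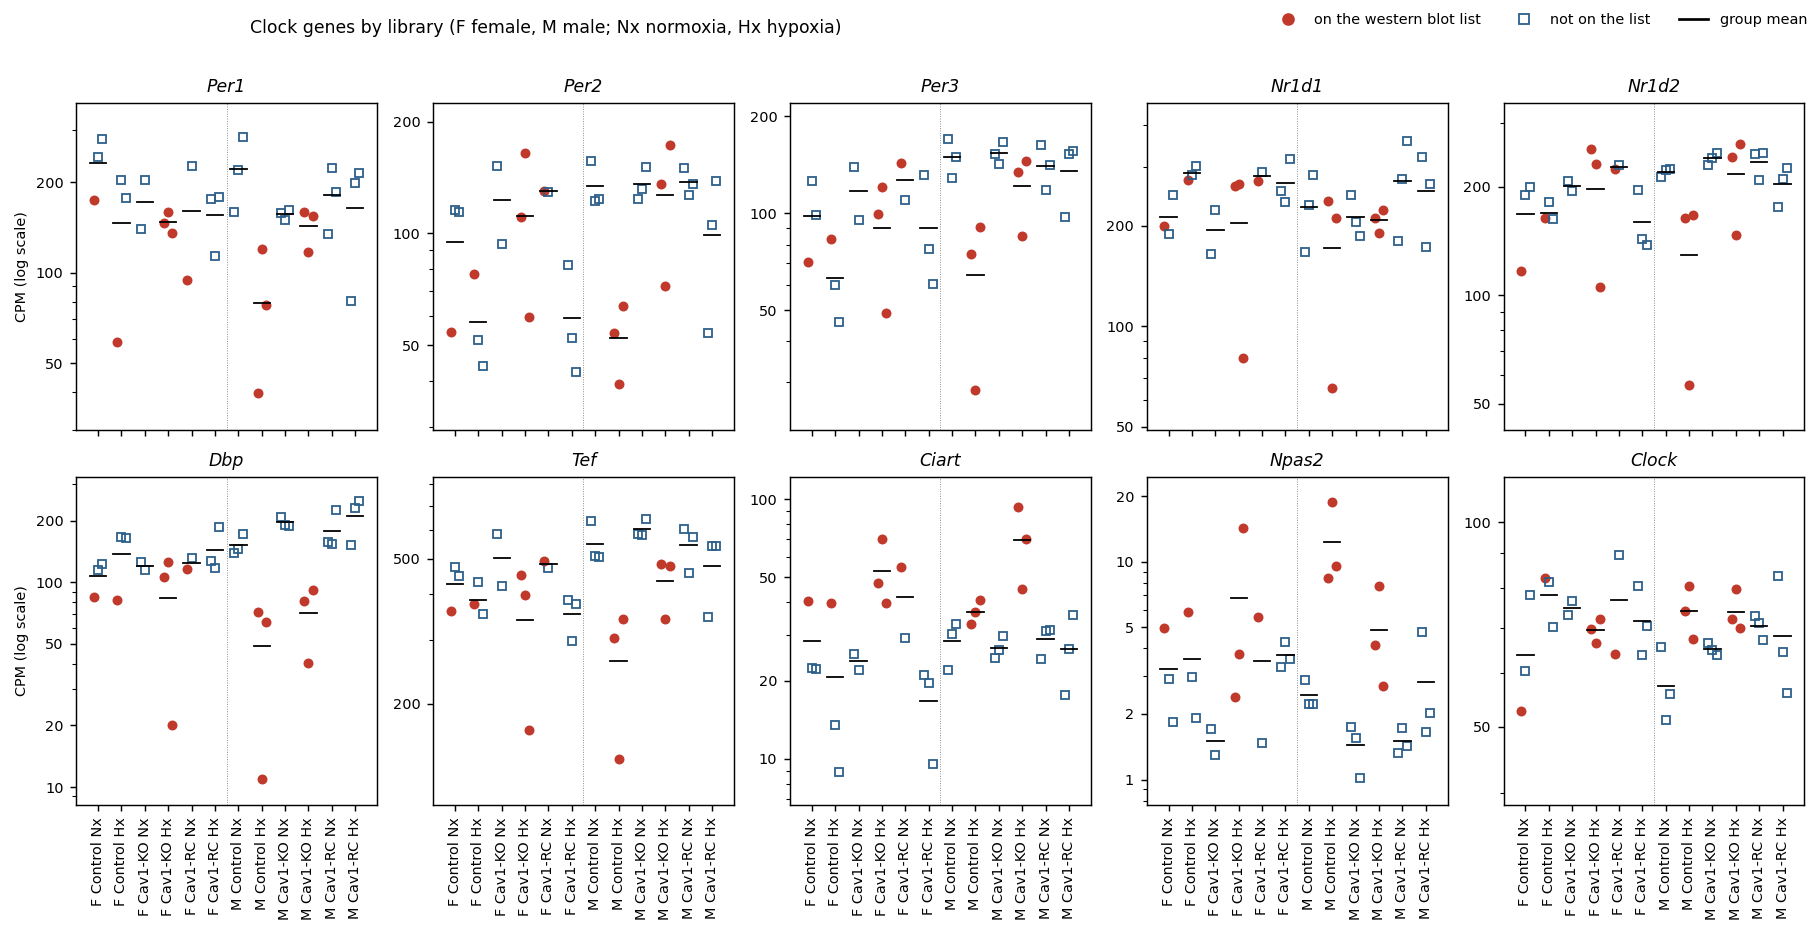
CPM of each clock gene (log axis) in each of the 34 libraries by group, with group means as bars, filled circles for libraries on the blot list and open squares for those off it. Circles sit high for Ciart (33.1 to 93.4 CPM) and low for Dbp (10.9 to 125 CPM), while Clock stays between 51.2 and 89.6 CPM.

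A pair of libraries stood apart from the rest. In replicate 2 of hypoxic Control males, Dbp was at 10.9 CPM, Nr1d1 at 65.0, Nr1d2 at 56.3, Per3 at 28.3 and Tef at 141, each the lowest of the 34, and Npas2 at 18.8 and Arntl at 29.7, each the highest. In replicate 3 of hypoxic Cav1-KO females, Dbp was at 20, Nr1d1 at 80.1, Nr1d2 at 105, Per3 at 49.1 and Tef at 170, with Npas2 at 14.3 and Arntl at 18.5. Both were thus low in the genes that are high in the light phase and high in the genes that stand opposite to them. The first is also 1 of the libraries whose Xist goes against its label. The ratio of Dbp to Npas2 was 0.581 in the lowest listed library, with a median of 15.6 and a highest value of 44.2 over the 12 listed libraries, and 27.4, 81.2 and 184 over the 22 others. Nr1d1 over Arntl ran from 2.19 (median 23.3) to 51.2 in listed libraries and from 24.3 (median 50) to 103 in the others. Both ratios overlapped between the 2 kinds of library.

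**Figure D2:**
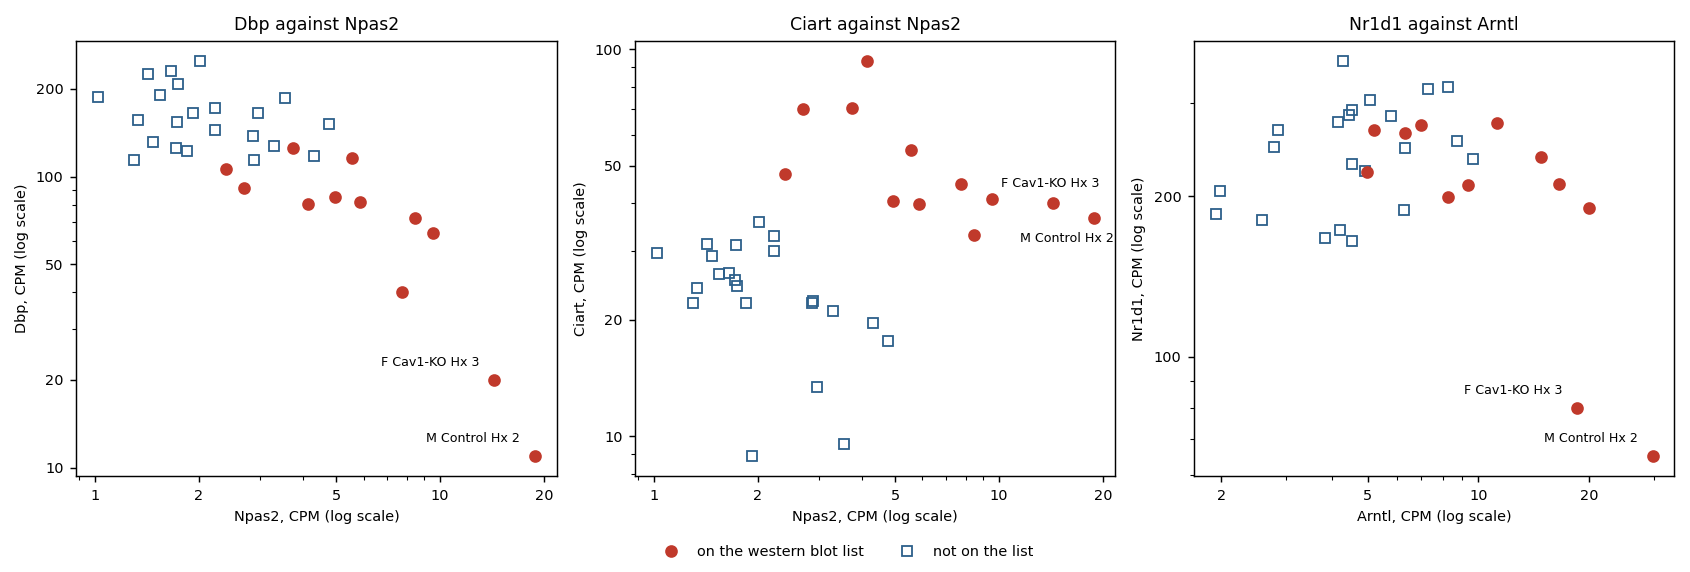
Pairs of genes across the 34 libraries in CPM (both axes log): Dbp against Npas2, Ciart against Npas2 and Nr1d1 against Arntl, with filled circles for libraries on the blot list. The 2 labelled libraries lie far out with Npas2 at 14.3 and 18.8 CPM, and in the middle panel the listed libraries lie above the others at like Npas2.

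To ask how genotype and oxygen bear on the clock genes, 18 pairs of groups were compared, each sex apart, with edgeR's quasi-likelihood test, calling genes that passed a Benjamini-Hochberg adjusted p of 0.05, over all genes tested, and a log2 fold change beyond 1 either way. The members received 14 calls, all within 6 comparisons. Hypoxia against normoxia called 4 members in Control males, where 6.36% of all genes tested were called, 3 in Cav1-KO males (17.7% of all genes) and 1 in Cav1-KO females (13.3%). Cav1-RC against Control in hypoxic males called 3 (9.90%), and Cav1-RC against Cav1-KO called 2 in hypoxic males (14.8%) and 1 in hypoxic females (8.98%). With 10 members, 1 to 3 calls are near the share of all genes in the comparisons of hypoxic Cav1-RC with Cav1-KO and in hypoxia against normoxia of Cav1-KO. The members' median log2 fold change was -0.91 in Control males and 0.76 in Cav1-RC against Control, where that of all genes was 0.00 and -0.02, and between -0.15 and 0.02 in the other 4. In each of the 6, 1 group lay wholly on the blot list and the other wholly off it, so that in these 6 membership of the list and the compared condition cannot be told apart.

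In the other 12 comparisons no member was called by edgeR. Cav1-KO against Control in hypoxic males, with both groups listed, had a members' median log2 fold change of 0.72, against -0.002 over all genes. In the rest of the 12 the members' median lay between -0.30 and 0.31. Of the 120 member tests in the 12, 17 had an unadjusted p under 0.05, and the Wald test of DESeq2 called 3, Ciart in Cav1-KO against Control in hypoxic females and Per2 and Npas2 in hypoxic males. The shares of all genes at that p, or called by the Wald test, are not given here, so neither count is set against all genes. The share of all genes called by edgeR was 0.929% in Cav1-KO against Control in hypoxic males, where both groups were listed. Where neither group was listed, it was 5% in Cav1-KO against Control, 3.59% in Cav1-RC against Cav1-KO and 2.45% in Cav1-RC against Control in normoxic males, and 2.27% in hypoxia against normoxia of Cav1-RC males. Among the 7 comparisons of females with listed and other libraries in 1 group, it was 0.122%, 0.1% and 0.137% in normoxia for Cav1-KO against Control, Cav1-RC against Cav1-KO and Cav1-RC against Control. It was 0.768% and 0.832% in hypoxia for Cav1-KO and Cav1-RC against Control, and 0.0175% and 0.0285% for hypoxia against normoxia in Control and Cav1-RC. The replicates are separate mice, and the p-values measure the spread between them. In the 7 comparisons with listed and other libraries in 1 group, that spread also holds the difference between these kinds. In hypoxia against normoxia of Control females, 8.47% of all genes were called among unlisted libraries only, Per2, Per3 and Ciart included. The lack of member calls in these 7 is limited by this.

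**Figure D3:**
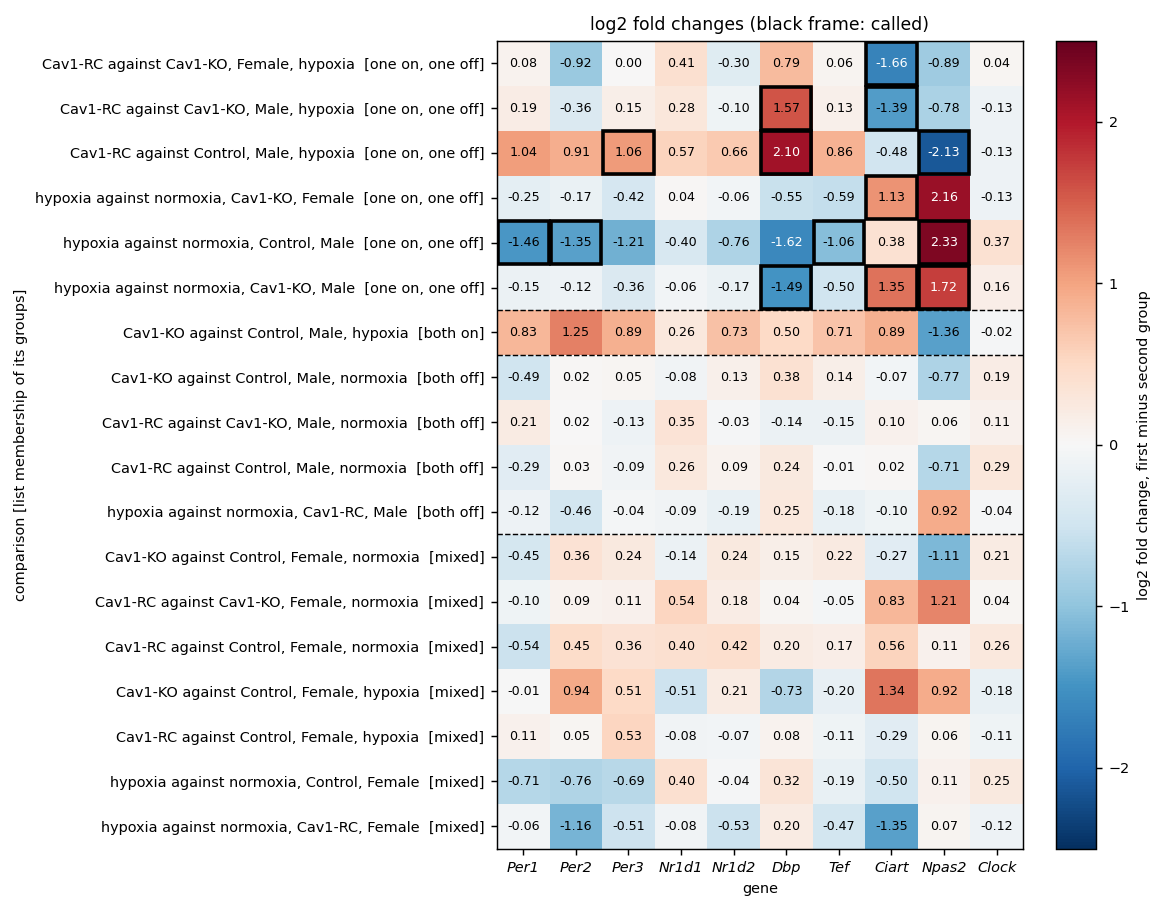
The log2 fold change (first minus second group) of the 10 clock genes in the 18 comparisons, grouped by whether the compared groups were on the blot list, with calls framed. The 14 framed cells all lie in the 6 comparisons of a listed with an unlisted group, from -2.13 to 2.33.

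Npas2, the partner of BMAL1, gave the largest changes. It had 8.43, 18.8 and 9.54 CPM in hypoxic Control males and 2.86, 2.23 and 2.23 in normoxic ones, with no overlap, a log2 fold change of 2.33 (SE 0.35, adjusted p = 0.0103). In Cav1-KO males it had 4.14, 7.75 and 2.70 CPM in hypoxia and 1.74, 1.54 and 1.02 in normoxia, also with no overlap (1.72, SE 0.41, adjusted p = 0.00713). Hypoxic Cav1-RC males had 4.75, 1.66 and 2.02 CPM, all below hypoxic Control males (-2.13, SE 0.46, adjusted p = 0.0085). These 3 calls held with any 1 library left out, and without replicate 2 of hypoxic Control males, the library that stood apart, the first was 1.88 and the last -1.66. Hypoxic Cav1-KO females had 2.40, 3.76 and 14.3 CPM against 1.71 and 1.3 in normoxia, a difference of 2.16 on the log2 scale that was not called, but was called without replicate 1 of hypoxic Cav1-KO females (2.57, adjusted p = 0.0325). Without replicate 3 of that group, the other library that stood apart, Npas2 was at 1.00 (adjusted p = 0.0629). In Cav1-RC against Cav1-KO of normoxic females, Npas2 was called without replicate 2 of Cav1-RC (1.87, adjusted p = 0.00919). That leaves 1 Cav1-RC library, a listed one, which is assumed to vary like the 2 of Cav1-KO that give the spread. Clock, its relative in the same role, was called nowhere, and its differences ran from -0.18 to 0.37. For comparisons of groups with 1 library left out, here and below, the share of all genes called is not given. Calls gained in such fits are thus not read as particular to a member.

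Among the repressors, Nr1d1 and Nr1d2 were called in no comparison. Nr1d1 had 238, 65.0 and 211.5 CPM in hypoxic Control males and 167, 231 and 283 in normoxic ones, which overlap (log2 fold change -0.40). Nr1d2 had 164, 56.3 and 167 CPM against 212.9, 223.1 and 224.4 there, without overlap (-0.76). Over all 18 comparisons the differences lay between -0.51 and 0.57 for Nr1d1 and between -0.76 and 0.73 for Nr1d2. Both encode nuclear receptors that silence Arntl and Npas2.

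Ciart, which encodes a repressor of the BMAL1 pair, was called in 4 comparisons, each time higher in Cav1-KO in hypoxia. Hypoxic Cav1-KO males had 93.4, 44.9 and 69.9 CPM and normoxic ones 24.4, 26.2 and 29.7 (log2 fold change 1.35, SE 0.22, adjusted p = 0.00105). Hypoxic Cav1-RC males had 17.7, 26.4 and 35.7 CPM (-1.39 against Cav1-KO, SE 0.29, adjusted p = 0.00531). The groups did not overlap in either comparison, and both calls held with any 1 library left out. Hypoxic Cav1-KO females had 47.7, 70.3 and 39.9 CPM, normoxic ones 25.4 and 22.1, and hypoxic Cav1-RC females 21.1, 19.6 and 9.52, so that the hypoxic Cav1-KO females lay above both. Cav1-RC against Cav1-KO in hypoxic females gave -1.66 (SE 0.32, adjusted p = 0.0111), which held with any 1 library left out and was -1.82 without replicate 3 of Cav1-KO. Hypoxia against normoxia in Cav1-KO females gave 1.13 (SE 0.23, adjusted p = 0.00994). That call was lost without replicate 2 of the hypoxic group (0.88, under the fold threshold) and without replicate 1 or 2 of the normoxic group (adjusted p = 0.0618 and 0.0822), which leaves that group with 1 library and the spread to the hypoxic group, and in 1 fit over 34 libraries (0.0745). Against Control in hypoxia, Ciart was called in Cav1-KO females without replicate 1 of Control (2.20, adjusted p = 0.000809), which sets listed against unlisted libraries only, and in Cav1-KO males without replicate 2 of Cav1-KO (1.12, adjusted p = 0.0187). In normoxic females it was called in Cav1-RC against Cav1-KO without replicate 2 of Cav1-RC (1.21, adjusted p = 0.00169), again with 1 listed Cav1-RC library left.

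The Per genes encode the repressors that close the loop. Per1 had 39.8, 120 and 78.2 CPM in hypoxic Control males and 160, 219 and 284 in normoxic ones (log2 fold change -1.46, SE 0.38, adjusted p = 0.0398). Per2 had 53.9, 39.3 and 63.9 CPM against 157, 123 and 124 (-1.35, SE 0.19, adjusted p = 0.00833). Neither overlapped between the groups. The Per2 call held with any 1 library left out, and without replicate 2 of the hypoxic group Per2 was at -1.19 and Per1 at -1.90. The Per1 call was lost without replicate 1 or 3 of the hypoxic group (adjusted p = 0.0781 and 0.137) and without replicate 2 or 3 of the normoxic group (0.0701 and 0.0966). Per3, a D-box target, had 74.8, 28.3 and 90.4 CPM in hypoxic Control males and 170, 129 and 150 in normoxic ones, and its -1.21 was not called (adjusted p = 0.0543). It was called by the DESeq2 Wald test (adjusted p = 0.00217), with no filter (0.00415), in 1 fit over 34 libraries (0.0263) and with the replicate block (0.0386).

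In hypoxic Cav1-RC males Per3 had 97.7, 153 and 156 CPM, all above hypoxic Control males (1.06, SE 0.36, adjusted p = 0.0491). The call was lost without replicate 1 or 2 of Control (adjusted p = 0.0857, and a log2 fold change of 0.72) and without replicate 2 or 3 of Cav1-RC (0.97 and 0.95), and also by the Wald test (adjusted p = 0.0915) and with the replicate block (0.0533). In the same comparison Per1, at 1.04, was called without replicate 2 of Control (1.49, adjusted p = 0.0191). Without replicate 1 of Cav1-RC, Per1 (1.38), Per2 (1.22) and Tef (1.05) were called as well. For Per2, calls also appeared in Cav1-KO against Control in hypoxic females without replicate 1 of Control (1.20, adjusted p = 0.0304), which again sets listed against unlisted libraries only, in hypoxic males without replicate 2 of Cav1-KO (1.54, adjusted p = 0.0172), and in Cav1-RC against Cav1-KO in hypoxic females without replicate 3 of Cav1-KO (-1.22, adjusted p = 0.0379). Per1 was called in Cav1-KO against Control in hypoxic males without replicate 2 of Control (1.28, adjusted p = 0.045). As above, the share of all genes called in these fits is not given.

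Dbp and Tef, the D-box factors that carry the rhythm to other genes, were lower in hypoxic males of the Control and Cav1-KO genotypes, though only some of the differences were called. Dbp had 80.6, 40.3 and 91.4 CPM in hypoxic Cav1-KO males and 209, 190 and 188 in normoxic ones (log2 fold change -1.49, SE 0.25, adjusted p = 0.00106). Hypoxic Cav1-RC males had 152, 231 and 250 CPM (1.57 against Cav1-KO, SE 0.29, adjusted p = 0.00306). Neither pair of groups overlapped, and both calls held with any 1 library left out. Hypoxic Control males had 71.8, 10.9 and 64.1 CPM of Dbp, all below Cav1-RC (2.10, SE 0.54, adjusted p = 0.0173), and this call was lost without replicate 2 or 3 of Cav1-RC (adjusted p = 0.0566 and 0.0545). Without replicate 2 of Control, Dbp was at 1.64 there (adjusted p = 0.000521). Against normoxic Control males, at 138, 145 and 171 CPM, the difference of -1.62 was not called, though it was with no filter (adjusted p = 0.00633) and in 1 fit over 34 libraries (0.0319), and without replicate 2 of the hypoxic group it was -1.15 and called (adjusted p = 0.00486). Tef had 304, 141 and 342 CPM in hypoxic Control males and 636, 508 and 506 in normoxic ones, without overlap (-1.06, SE 0.30, adjusted p = 0.0465). The Tef call was lost without any 1 of the 6 libraries, with values between -1.3 and -0.76. For replicate 2 of the hypoxic group, which gave -0.76, the fold threshold was missed, and without the others the adjusted p ran up to 0.106.

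In 3 groups the listed library could be set beside unlisted libraries of the same group. Ciart was 40.6 CPM in the listed library and 22.1 and 22.4 in the others of normoxic Control females, 39.8 against 8.87 and 13.4 in hypoxic Control females, and 55.0 against 29.1 in normoxic Cav1-RC females. Npas2 was 4.95 against 1.84 and 2.90, 5.86 against 1.92 and 2.97, and 5.56 against 1.47 in the same groups. Per1 went the other way, at 174 against 243 and 279, 59.0 against 177 and 203, and 94.6 against 226.2. The listed library was the highest of its group in Ciart and Npas2 and the lowest in Per1 and Dbp in each of the 3 groups, while Per2 was lowest in it in normoxic Control females (54.4 against 114 and 116) and highest in hypoxic ones (77.7 against 44.1 and 51.6).

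A fit over the 34 libraries with a term for the list beside the 12 groups put sizes on this, and 13.5% of the genes tested were called for the list. Of the members, 3 of 10 were called. Ciart was higher in listed libraries by 1.23 on the log2 scale (SE 0.25, adjusted p = 0.00027), Npas2 by 1.33 (SE 0.44, adjusted p = 0.0153), and Per1 had -1.15 (SE 0.31, adjusted p = 0.00316). Dbp had -0.60 (SE 0.43, adjusted p = 0.263), and Per2, Per3, Nr1d1, Nr1d2, Tef and Clock lay between -0.31 and 0.12. The members' median was -0.13, against 0.03 over all genes tested. The term rests on the 3 groups with both kinds of library. Without replicate 1 of hypoxic Control females no member was called, with Per1 at -0.86 (adjusted p = 0.0638), Ciart at 0.89 (adjusted p = 0.0223) and Npas2 at 1.41 (adjusted p = 0.0579). Without either library of normoxic Cav1-RC females, Npas2 was at 1.13 and not called. Leaving out the 2 libraries that stood apart, which was tried after seeing the data, could hardly move these values, since both sit in wholly listed groups. It changes mainly the spread, and the adjusted p of Dbp became 0.0258 at the same -0.60.

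**Figure D4:**
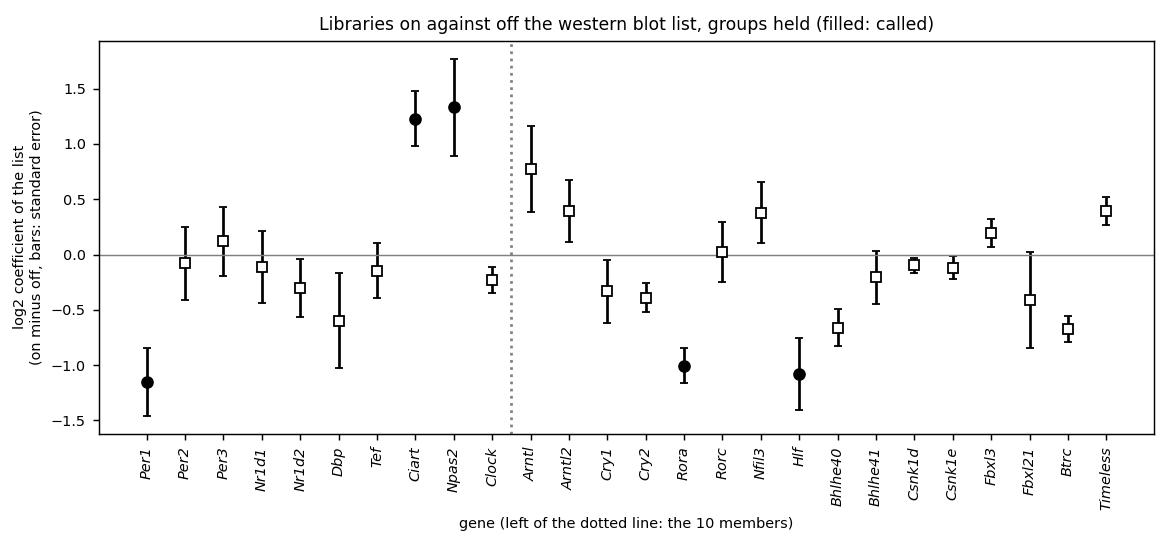
Log2 coefficient of the blot list (listed minus other libraries, 12 groups held) for the 10 members and 16 other clock genes, with standard errors as bars and called genes filled. Npas2 (1.33) and Ciart (1.23) lie above 0 and Per1 (-1.15), Hlf (-1.08) and Rora (-1.0) below.

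With the list term in the fit, none of the 14 calls between groups remained. Each compares a wholly listed with a wholly unlisted group, so the fit shifts each value by about the gene's list coefficient above. That coefficient and its error come from the female groups with both kinds of library. How much of its size a gene keeps thus repeats its coefficient and is no separate check. For Ciart, the -1.66 in Cav1-RC against Cav1-KO of hypoxic females became -0.45 (SE 0.38), the -1.39 in males -0.16 (SE 0.38), the 1.35 in hypoxia against normoxia of Cav1-KO males 0.12 (SE 0.38), and the 1.13 in Cav1-KO females -0.10 (SE 0.40). Npas2 went from 2.33 to 1.01 (SE 0.66) in Control males, from 1.72 to 0.40 (SE 0.68) in Cav1-KO males, and from -2.13 to -0.81 (SE 0.66) in Cav1-RC against Control of hypoxic males. Per1 in Control males went from -1.46 to -0.30 (SE 0.44). Dbp kept more of its size, with 0.97 (SE 0.62) in place of 1.57 in Cav1-RC against Cav1-KO, -0.89 (SE 0.62) in place of -1.49 in Cav1-KO males and 1.48 (SE 0.62) in place of 2.10 in Cav1-RC against Control, at adjusted p of 0.413, 0.603 and 0.298. Per2 and Tef in Control males (-1.25, SE 0.48, and -0.90, SE 0.36) and Per3 in Cav1-RC against Control (1.16, SE 0.46) kept about the size they had, with adjusted p of 0.161, 0.185 and 0.27. In Cav1-KO against Control of hypoxic males, where both groups are listed, Per2 was called in this fit (1.26, SE 0.36, adjusted p = 0.0316). Per2 had 136, 72.3 and 173 CPM there in Cav1-KO and 53.9, 39.3 and 63.9 in Control, and the fit to these 2 groups alone gave 1.25 with an adjusted p of 0.081. Among unlisted libraries only, hypoxia against normoxia in Control females called Per2 (-1.31, adjusted p = 0.00351), Per3 (-1.13, adjusted p = 0.00953) and Ciart (-1.03, adjusted p = 0.0191), with 2 libraries in each group, where 8.47% of all genes were called.

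**Figure D5:**
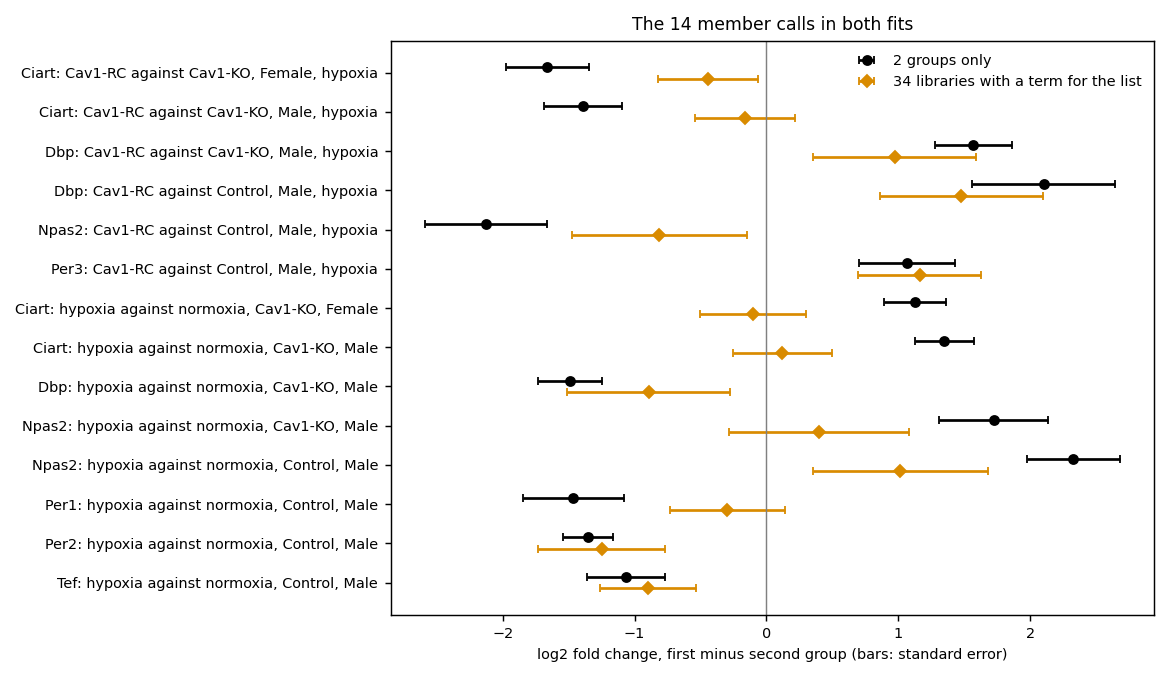
The 14 member calls as log2 fold changes (bars: standard error) from the fit of the 2 groups alone and from the fit of 34 libraries with a term for the blot list. The Ciart values move from between -1.66 and 1.35 to between -0.45 and 0.12, and Per2 in Control males from -1.35 to -1.25.

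Of 16 further genes of the clock loop 0 to 5 were called per comparison. In hypoxia against normoxia of Control males, Arntl (2.12) and Nfil3 (1.49), a D-box repressor, were called higher and Hlf (-1.84), a relative of Dbp and Tef, lower. In Cav1-KO males Arntl (2.32) and Hlf (-1.60) were called. Cav1-RC against Control in hypoxic males gave Arntl (-2.0) and Nfil3 (-1.03) lower and Hlf (1.95), Bhlhe40 (1.32) and Bhlhe41 (1.07) higher. The last pair encodes the DEC repressors of E-box genes. The share of all genes called was 6.36%, 17.7% and 9.90% in these comparisons. The counts among the 16 lay above that share in Control males and in Cav1-RC against Control, and below it in Cav1-KO males. The medians of the 16 were -0.48, -0.31 and 0.49 in these comparisons, against 0.00, 0.01 and -0.02 over all genes. Arntl was also called in Cav1-KO against Control of normoxic males (-1.07, adjusted p = 0.0318), with neither group listed, and Btrc (1.04) in Cav1-RC against Cav1-KO of hypoxic males. With 5% and 14.8% of all genes called there, these lone calls among the 16 are near or below that share. Cry1, a repressor that acts with PER, was called nowhere and ranged from -0.76 to 0.91. For the list itself, Rora (-1.0), an activator of Arntl, and Hlf (-1.08) were called, with a median of -0.16 over the 16. As 13.5% of all genes were called for the list, these calls are near that share.

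Genes that follow the clock and genes that answer to glucocorticoids were read as 2 further lists, of which 9 and 10 genes were tested. Of the clock-following genes, 4 were called in hypoxia against normoxia of Control males, 3 lower and 1 higher, where 6.36% of all genes were called, and Wee1 (-1.83), a cell-cycle kinase, Por (-1.03) and Usp2 (-1.14) had the smallest adjusted p. In Cav1-KO males 4 were lower, beside 17.7% of all genes called, among them Hsd11b1 (-1.21), Tspan4 (-1.29) and Wee1 (-1.40). Their medians, -0.53 and -0.93, lay below those of all genes, 0.00 and 0.01. Of the glucocorticoid genes, 5 were called in each of hypoxia against normoxia of Control males (1 higher, 4 lower) and Cav1-RC against Control of hypoxic males (5 higher), where 6.36% and 9.90% of all genes were called. The medians of the 10 were -1.26 and 1.12, beside 0.00 and -0.02 over all genes. Klf9, a glucocorticoid-induced factor, had -2.06 in the first and 1.92 in the second, and -2.0 and -1.92 in hypoxia against normoxia of Cav1-KO males and females. The list as a whole did not follow Klf9 there, with 2 higher and 2 lower and a median of 0.38 in Cav1-KO males and 1 higher and 1 lower and a median of -0.04 in females. In Cav1-KO against Control of hypoxic males, where both groups are listed, Fkbp5 alone was called, higher, beside 0.929% of all genes. The median of the 10 was 0.63 there. For the blot list, 4 were called lower, Klf9 (-2.40) and Ddit4 (-1.34) among them, and Mt2 (1.56) higher, a median of -0.59 over the 10, and Wee1 (-1.13) and Lonrf3 (-1.18) were called lower among the clock-following genes. Per1 was called lower in the same libraries.

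As phase sets clock genes against each other, Npas2 was related to the 9 other members over the 34 libraries in log2 CPM, with permutation tests adjusted over the 9. Pearson's r was -0.83 for Dbp and for Tef, and -0.75 for Nr1d2, each at the smallest p that 100000 resamples can give (1e-05, adjusted 3e-05), with Spearman's rho of -0.71, -0.74 and -0.63. The permutations treat the 34 libraries as exchangeable, although they fall into 12 groups and 2 kinds, so these p-values do not allow for shifts that groups or kinds share. In deviations from group means r was -0.76, -0.68 and -0.72, given with no p. Per3 (-0.64), Per2 (-0.62) and Per1 (-0.60) followed, with adjusted p of 0.000216, 0.000216 and 0.00054 and rho of -0.57, -0.53 and -0.57. Nr1d1 had r = -0.47 but rho = -0.08 (adjusted p = 0.00692 and 0.667). Ciart had r = 0.30 (adjusted p = 0.0996, rho = 0.36) and Clock r = 0.18 (adjusted p = 0.297, rho = 0.15). Dbp, Tef, Nr1d2 and the Per genes were thus low where Npas2 was high, with Ciart and Nr1d1 by rank apart from them.

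These relations were recomputed within each kind of library. Over the 12 listed libraries r was -0.88 for Tef, -0.86 for Nr1d2, -0.85 for Dbp, -0.81 for Per2 and Per3, -0.77 for Nr1d1, -0.64 for Ciart and -0.35 for Per1 (adjusted p = 0.00096 for the first 3, then 0.00284, 0.00227, 0.00376, 0.033 and 0.263). Over the 22 others it was -0.73 for Nr1d2, -0.66 for Tef and -0.65 for Per2 (adjusted p = 0.00117, 0.00357 and 0.00357), -0.47 for Ciart (0.055), -0.41 for Per3 (0.103), -0.32 for Per1 (0.211), -0.28 for Dbp (0.248) and 0.27 for Nr1d1 (0.248). Ciart was thus positive over all libraries and negative within each kind. Whether r differed between the 2 kinds of library was not tested, and both libraries that stood apart are listed. Without the 2 libraries that stood apart, which are the farthest from the median of Npas2, r was -0.73 for Dbp, -0.72 for Tef, -0.59 for Nr1d2 and 0.05 for Nr1d1, so that over all libraries the r with Nr1d1 rests on those 2. In deviations from group means, with those 2 included, Nr1d1 had r = -0.48 and rho = -0.41, and over the 12 listed libraries rho was -0.52.

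Over the same libraries, the genes whose log2 CPM went most with a member were found by Pearson's r among 19869 others, as a description, since the libraries share groups and list. For Npas2 these were Arntl (0.91), Rasl11a (0.88), Vstm5 (0.86), Leo1 (0.86) and Rexo2 (0.86), and at the other end Mknk2 (-0.91), Wee1 (-0.91), Hlf (-0.90), Pfkfb3 (-0.88) and Rere (-0.87). For Dbp they were Mknk2 (0.87), Hlf (0.86), Tspan4 (0.85), Lefty1 (0.85) and Rasd2 (0.84), and Arntl (-0.84), Npas2 (-0.83), Rasl11a (-0.83), Leo1 (-0.82) and Wdr75 (-0.80). Per1 had other neighbours, Errfi1 (0.78), Rasgef1b (0.77), Sh2d3c (0.76), Trim67 (0.75) and Tsc22d3 (0.75), and Hoxa2 (-0.76), Crot (-0.69), Rtl8a (-0.69), Nckipsd (-0.67) and Cables2 (-0.66). Errfi1 and Tsc22d3 are on the glucocorticoid list.

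Whether a change differed between the sexes was tested in 9 comparisons, as the change in females less that in males on the log2 scale. Such a difference was called at an adjusted p under 0.05 over all genes tested, with no threshold on its size. edgeR called no gene at all, members included. Per comparison 583 to 3309 genes and 0 to 3 members had an unadjusted p under 0.05. The largest member differences were those of Npas2, 2.26 in Cav1-KO against Control in hypoxia (0.92 in females, -1.36 in males, adjusted p = 0.27), 2.18 in Cav1-RC against Control in hypoxia (0.06 and -2.13, adjusted p = 0.195) and -2.19 in hypoxia against normoxia of Control (0.11 and 2.33, adjusted p = 0.282). These 3 share the hypoxic Control males, whose replicate 2 has Xist against its label and Npas2 at 18.8 CPM. Without the libraries that go against their sex label, the Npas2 differences were 1.80, 1.72 and -1.73 with adjusted p of 0.198 to 0.33. Other sex comparisons that hold such a library are left with 1 normoxic Cav1-RC male and are not counted. No member passed in these 3 comparisons of Npas2. Of all genes, 0.570%, 0.986% and 0.376% passed there, so the lack of members is near that share. Without replicate 1 of hypoxic Control females, the only listed library of its group, members passed in these 3. They were Npas2 (2.79) and Ciart (1.29) in the first, Npas2 (2.72) and Dbp (-2.30) in the second, and Npas2 (-2.74), Dbp (2.23) and Ciart (-1.74) in the third, with adjusted p of 0.0116 to 0.0478. Of all genes tested, 29.7%, 26.9% and 19.0% passed in those fits. In Cav1-RC against Cav1-KO in normoxia, Per1 (-1.07), Ciart (1.11), Npas2 (1.81) and Clock (-0.33) passed without replicate 2 of normoxic Cav1-RC females, which leaves 1 listed library in that group and takes the spread from the other 3 groups, and 33.3% of all genes passed there. The normoxic Cav1-RC males of that comparison hold 2 libraries with Xist against their label. Leaving out either library also changes which of the compared female groups are listed, while the male groups stay wholly listed or wholly unlisted, and the part of the list in these differences was not tested.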

How the data were processed

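RNA of 35 whole mouse lungs was sequenced from poly-A selected, directional libraries, 1 library per mouse. The authors mapped read pairs to mm10 with HISAT2 2.0.5 and made the deposited counts per gene with featureCounts 1.5.0-p3. The deposited FPKM values, also made by the authors, divide those counts by gene length and library total. A total of 34 libraries had a group in the labels.

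Counts of 12425535 to 33343006 per library were scaled by TMM, filtered with filterByExpr and tested pair by pair with the quasi-likelihood test of edgeR 4.0.16 in R 4.3.3, with limma 3.58.1. Adjusted p-values are Benjamini-Hochberg over all genes tested, and a call needed 0.05 and a log2 fold change beyond 1, except for differences between the sexes, which needed 0.05 alone. The SE is the log2 fold change over the square root of F. Relations used log2 CPM with a prior count of 2 and 2-sided permutation tests of 100000 resamples. The scripts were tested on simulated data. Alternatives were other size factors, DESeq2 1.42.0, no filter, no fold threshold, 1 fit over 34 libraries with and without a term for the blot list, libraries off the list only, a replicate block, and leaving out libraries.

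Besides the 10 members, the text names Arntl, Cry1 and Nfil3, any other gene of the clock list that was called, up to 3 called genes of each other list per comparison by adjusted p, and 5 genes at each end of the correlations with Npas2, Dbp and Per1. Members and lists were chosen with earlier results of these data known. Promoters came from RefSeq (GRCm38.p6).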

Additional observations from a re-analysis of the deposited data

Results flagged for a closer look

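In females, Ciart moved in opposite ways with no overlap of the groups. Cav1-RC against Cav1-KO gave a log2 fold change of -1.66 in hypoxia and 0.83 in normoxia, and hypoxia against normoxia gave 1.13 in Cav1-KO and -1.35 in Cav1-RC. Of these 4 values, those of -1.66 and 1.13 were called in edgeR. With a term for the blot list they became -0.45 and -0.0994, neither called, and the call at 1.13 was also lost in 3 of 5 fits with 1 library left out. The difference itself was tested after seeing the data, as the interaction of genotype and oxygen over these 4 groups, and was -2.48 (SE 0.52) with an adjusted p of 0.0685 in edgeR, which misses the threshold, while 26 of 18513 genes were called. Replicate 1 of normoxic Cav1-RC females and all hypoxic Cav1-KO females were on the blot list, and the other libraries of these groups were not.

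The library of uncertain identity entered no comparison. It is on the blot list, and its label gives female, Cav1-KO and normoxia only as possible. It had 313 CPM of Nr1d2, above the 34 others, whose highest was 264.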

How the results depend on the processing

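The 14 member calls were counted again under each alternative. All 14 were kept with DESeq2's size factors (14 calls), with no fold threshold (16) and with no low-count filter (22). The DESeq2 Wald test made 17 calls and kept 13, losing Per3 in Cav1-RC against Control of hypoxic males, and 1 fit over 34 libraries made 18 and kept 13, losing Ciart in hypoxia against normoxia of Cav1-KO females. With a term for the blot list in that fit, 1 call was made and none of the 14 was kept. In the 6 comparisons that hold a library against its sex label, 8 calls were made without those libraries and 5 of 7 were kept.

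By comparison, Cav1-KO against Control in hypoxic females had 1 member called by the Wald test and 1 in the fit over 34 libraries. In hypoxic males it had 2 by the Wald test, 2 with no filter, 1 in the fit over 34 libraries, 1 with the list term and 1 without the library against its label. With the list term, 0 members were called in Cav1-RC against Cav1-KO of hypoxic females and males, in Cav1-RC against Control of hypoxic males, and in hypoxia against normoxia of Cav1-KO females, Control males and Cav1-KO males. For example, the sign turned there for Per1 in Cav1-RC against Control of hypoxic males, from 1.04 to -0.13. It also turned for Ciart in hypoxia against normoxia of Cav1-KO females, from 1.13 to -0.0994. These compare wholly listed with wholly unlisted groups, so the fit shifts each value by about the gene's list coefficient. That coefficient was -1.15 for Per1 and 1.23 for Ciart, about the size of the changes, so these turns are no separate finding. Turns of other members there are not listed here. With no filter, hypoxia against normoxia called 2 in Cav1-KO females and 2 in Cav1-RC females, and 1 sex difference each in Cav1-KO and Cav1-RC. With libraries off the list only, it called 3 in Control females.

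The labels number the replicates 1 to 3 in each group. Of 13 comparisons with 3 such pairs, 0 had every pair's correlation over 0.1, and in 1 every library was closest to its own number, so the numbers were not taken as pairs. With the number as a replicate block, 17 members were called and 13 of the 14 kept, losing the same Per3 call, with 2 in Cav1-KO against Control of hypoxic males.

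When 1 library at a time was left out, the members called ranged from 0 to 2 in Cav1-RC against Cav1-KO of normoxic females, in Cav1-KO against Control of hypoxic females and males, and in hypoxia against normoxia of Cav1-KO females. The range was 1 to 2 in Cav1-RC against Cav1-KO of hypoxic females, 1 to 6 in Cav1-RC against Control of hypoxic males, and 2 to 4 in hypoxia against normoxia of Control males. Npas2 in Cav1-RC against Cav1-KO of normoxic females ran from -0.046 to 1.87. Sex differences ranged from 0 to 4 in Cav1-RC against Cav1-KO in normoxia, 0 to 2 in Cav1-KO and in Cav1-RC against Control in hypoxia, and 0 to 3 in hypoxia against normoxia of Control. Members called for the list ranged from 0 to 3.

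The r of Npas2 was -0.35 (on the list) and -0.32 (off it) for Per1, -0.41 off the list for Per3, 0.27 off the list and 0.049 without the 2 farthest libraries for Nr1d1, -0.28 off the list for Dbp, -0.64 on and -0.47 off the list for Ciart, and -0.68 in deviations from group means for Tef. Groups of 2 or 3 mice limit every test, Npas2 rests on as few as 19 counts, and the list term on 3 groups.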

Other observations

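In the same library of uncertain identity, Per2 was at 165 CPM and Ciart at 78.0 CPM, each above 33 of the 34 libraries, and Per3 at 161 CPM, above 31. Npas2 was at 3.38 CPM and Dbp at 145 CPM, each above 21 of the 34. Clock, at 61.4 CPM, was above 5.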
